A study of Mus musculus with 4 samples.

Results

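Translation initiation and elongation factors are the proteins that bring a ribosome onto an mRNA, find the start codon and move the ribosome along the message. Their transcripts were described in MEL cells, a mouse erythroleukemia line held at an early erythroid stage that can be driven on toward red cells with dimethyl sulfoxide (DMSO). RNA was sequenced from 2 uninduced samples and 2 samples grown with 1.5% DMSO, here called induced. All 4 samples were the same line in the same complete medium, with no genetic change given, and how long they were exposed is not stated in the labels. The members were the rows of the expression table with a single gene symbol beginning with Eif1 to Eif6, Eef1 or Eef2, without the eIF2 kinases (Eif2ak), without Eef1e1 and without pseudogenes. There were 51 of them among 47935 rows, and 50 were protein-coding genes in GENCODE M21. Another 9 rows held a factor gene together with a further symbol, often of a small RNA inside the gene, and were no members. They included the rows of Eef1a1, Eef1b2, Eif4a1, Eif4a2, Eif4e and Eif4g2.

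In initiation, eIF2 carries the initiator tRNA as a complex with GTP, and eIF2B reloads it with GTP after each round. Phosphorylated eIF2 blocks eIF2B, which is how stress kinases slow translation, and in red cell precursors the heme-regulated kinase couples globin synthesis to heme by this route. The many-subunit factor eIF3 holds the small ribosomal subunit, eIF4F (the cap-binding protein eIF4E, the scaffold eIF4G and the helicase eIF4A) brings in the capped mRNA, and 4E-BP proteins keep eIF4E from eIF4G. In elongation, eEF1A delivers aminoacyl-tRNAs, eEF2 moves the ribosome by a codon, and eIF5A, the protein that carries the modified amino acid hypusine, helps peptide bonds form at difficult sequences.

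Levels are in FPKM, a fragment count divided by transcript length and library size, so genes can be compared with each other per length. Of the 51 members, 48 reached 1 FPKM in at least 2 samples and were tested, and the lowest single value among these was 2.94 FPKM. The other 3 were listed at 0 in every sample: the tissue-restricted paralog Eef1a2, the oocyte form Eif4e1b, and Eif2c5, annotated as a lincRNA gene, which is a member by its symbol only. Members summed to 10597 and 10811 FPKM in uninduced samples 1 and 2 and to 6884 and 7992 FPKM in induced samples 1 and 2. Both induced sums lay below both uninduced sums. As a share of all FPKM the members took 1.00% and 0.815% in the uninduced and 0.552% and 0.726% in the induced samples, a mean of 0.910% ± 0.133 against 0.639% ± 0.123 (SD, n = 2 each). The difference of -0.270 percentage points had a two-sided exact permutation p = 0.333, which is as low as 4 samples in this design can reach. Without globin genes and the most abundant loci in the total, the shares were 1.40%, 1.29%, 0.955% and 1.04% in the same order. The 6 most abundant members, Eef2, Eif3g, Eef1g, Eif5a, Eif3i and Eif3h, made up 52.8% to 58.0% of the members' sum in each sample.

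Of the 48 tested members, 15 fell (31.2%) and none rose, where 14.7% of all 12890 loci tested fell and 11.5% rose. A fall or rise means a Benjamini-Hochberg adjusted p under 0.05 in limma over all loci, on log2(FPKM + 1). At an unadjusted p of 0.05 the counts were 20 lower and 0 higher. The share of all loci at that threshold was not counted. Unadjusted counts, here and below, therefore have no background beside them and carry no comparison. The median log2 fold change of the members was -0.43, beside 0.03 for all loci tested, and 38 of the 48 had a negative value, beside 48.8% of all loci. Both induced values lay below both uninduced values in 26 members (34.7% of all loci) and above them in 5 (36.1% of all loci), and the groups overlapped in 17. The members' changes ran from -1.89 for Eif3b to 1.14 for Eif2s3y. The cumulative plot of fold changes shows the members as a curve shifted to the left. Its ends cannot be compared with the tails of all loci, since 48 genes seldom reach the extremes of 12890. These calls need all 4 samples: 0 members were called without uninduced 1, without uninduced 2 or without induced 2, and 1 (Eif3b) without induced 1, while over all loci the calls dropped to 30, 14, 67 and 486 in the same order.

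**Figure D1:**
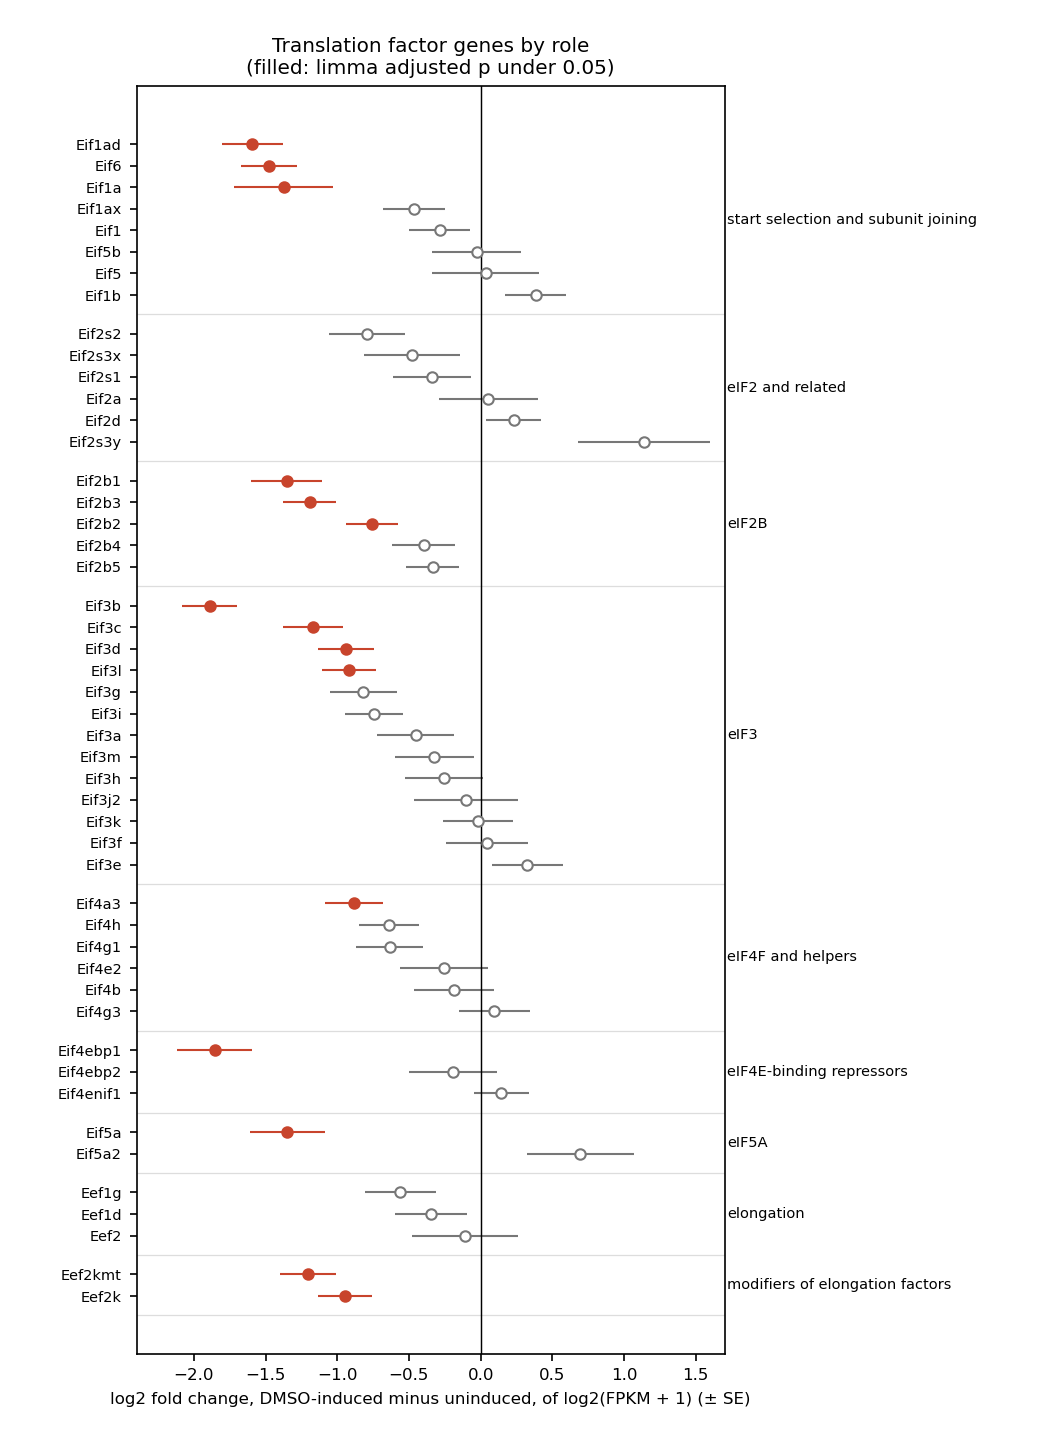
Log2 fold change (induced minus uninduced, on log2(FPKM + 1)) of the 48 tested members on the horizontal axis with limma's moderated SE as bars, grouped by role; filled points passed an adjusted p of 0.05. The 15 filled points all lie left of 0, between -1.89 and -0.76, and each of the groups eIF2B, eIF3, eIF5A and eIF4E-binding repressors holds both filled and open points.

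**Figure D2:**
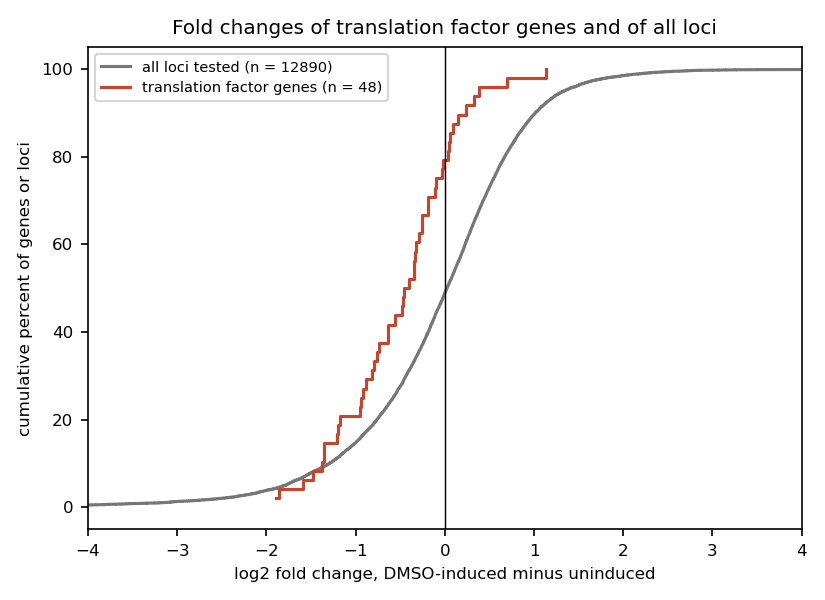
Cumulative percent of the 48 members (red) and of all 12890 loci tested (grey) against log2 fold change. The members' curve crosses 0 at 79.2% and its median lies at -0.43, beside 0.03 for all loci.

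Read depth was not given. Steps between the lowest values of short single-exon genes put the relative depth at 0.90 and 1 in uninduced samples 1 and 2. In induced samples 1 and 2 it was 0.67 and 0.73, so both induced libraries were the shallower ones. This holds provided that only the library total was used for scaling. The part of depth in the members' changes was not tested. The erythroid markers were all expressed (12 of 12 in at least 2 samples), and their sum rose from 1588 to 1881 FPKM in the uninduced to 59527 to 113147 FPKM in the induced samples. Markers of other cells were low: the macrophage list summed to at most 7.30 FPKM, nearly all of it Cd68, the epithelial list to at most 1.73, the lymphoid list to at most 0.44 and the fibroblast list to at most 0.23 FPKM, with Ms4a1 and Dcn at 0 in every sample. The macrophage sum was 4.74 to 7.30 FPKM in the uninduced and 1.08 to 2.16 FPKM in the induced samples, and the epithelial sum 1.57 to 1.73 and 0.03 to 0.27 FPKM. Within these lists Cd68 (mean 5.89 against 1.20 FPKM, adjusted p = 0.0273) and Krt8 (1.40 against 0.13 FPKM, adjusted p = 0.0236) fell, in the direction of the members. Of Spi1, Myb and Kit, listed as markers of the immature line, 2 of 3 reached 1 FPKM in at least 2 samples. Kit was at most 0.38 FPKM in any sample, so the sum of the list was nearly all Spi1 and Myb. That sum was 136 to 147 FPKM in the uninduced and 29.5 to 34.5 FPKM in the induced samples. The part of these shifts in the members' changes was not tested. FPKM is a relative measure, in which higher values of dominant transcripts lower the rest. Under the 3 other scalings, 11 to 16 members fell and none rose, beside 11.8% to 15.3% of all loci that fell. In bulk RNA, a smaller share of cells that hold a transcript and less of it in each cell cannot be told apart. Nothing in the labels shows that replicates were grown separately, and p-values then measure no more than the differences among these 4 libraries, whether technical or not.

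Among factors of start selection and subunit joining, 3 of 8 tested members fell (37.5%, beside 14.7% of all loci) and none rose. Eif1ad, which encodes a nuclear protein related to eIF1A (chromosome 19, 5366741 to 5371526, GRCm38), measured 50.3 and 51.0 FPKM in the uninduced and 18.4 and 14.1 FPKM in the induced samples, a log2 fold change of -1.59 ± 0.21 (SE, adjusted p = 0.0144). Eif6, whose protein keeps the large ribosomal subunit from joining too early and also acts in its assembly (chromosome 2, 155819832 to 155826925), measured 184 and 167 FPKM against 66.7 and 58.4 FPKM (-1.47 ± 0.19, adjusted p = 0.0144). Eif1a, the gene for the factor that helps eIF1 scan for the start codon (chromosome 18, 46597701 to 46616456), measured 59.6 and 38.2 FPKM against 23.0 and 13.7 FPKM (-1.38 ± 0.34, adjusted p = 0.0436). In all 3 genes both induced samples lay below both uninduced samples, and the ratio of mean FPKM was 0.321, 0.357 and 0.375. Eif1a did not pass under quantile normalization (adjusted p = 0.0527), with globins and the most abundant loci taken out of the sums (0.0692) or with a pseudocount of 0.1 (0.0501).

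Eif1ax, the X-linked paralog of Eif1a (chromosome X, 159372178 to 159389928), was the most abundant member of the group and measured 238 and 244 FPKM against 196 and 155 FPKM (-0.47 ± 0.22, adjusted p = 0.165). The ratio of Eif1ax to Eif1a was 3.99 and 6.39 in the uninduced and 8.54 and 11.3 in the induced samples, so the X-linked copy made up more of the pair after induction in both samples. The copies are near-identical, and the split of reads between them is uncertain. Eif1, the scanning factor that rejects wrong start codons, measured 122 and 154 against 108 and 118 FPKM, and its paralog Eif1b 59.7 and 46.3 against 65.1 and 72.7 FPKM. Neither passed (adjusted p = 0.35 and 0.232), although their groups did not overlap and pointed in opposite directions, and the sign of Eif1 changed under quantile normalization (0.016). Eif5, which triggers GTP hydrolysis on eIF2, measured 45.3 and 22.1 against 36.1 and 29.1 FPKM, and Eif5b, the subunit-joining GTPase, 14.6 and 10.1 against 14.9 and 9.41 FPKM. In both genes the groups overlapped. Exons of Eif1ad overlap those of Banf1 on the other strand over 15.3% of their bases. Exons of Eif6, whose row spans 7929 bp beyond the gene, overlap Gm16098 over 5.11%. Those of Eif5b, whose row spans 87529 bp beyond the gene, overlap Rev1 over 16.85%, and those of Eif1b overlap D830035M03Rik over 12.7%. Since use of strand in counting was not given, reads there cannot be told apart.

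Of 6 members around eIF2, none passed by limma, where 14.7% of all loci fell and 11.5% rose. With only 6 genes, 0 cannot be told apart from these shares. At an unadjusted p of 0.05, 1 gene was lower and 0 higher. Eif2s2, the beta subunit, was that gene, with 82.1 and 62.5 FPKM against 48.9 and 34.2 FPKM (-0.79 ± 0.27, adjusted p = 0.0834); its row spans 238391 bp beyond the gene. Eif2s1, the alpha subunit that the stress kinases phosphorylate, measured 66.3 and 42.6 against 45.3 and 38.6 FPKM, with overlapping groups. The gamma subunit is encoded on both sex chromosomes in mice. Its X-linked gene Eif2s3x, the most abundant of the group, measured 223 and 130 against 142 and 105 FPKM (-0.48 ± 0.33, adjusted p = 0.325), and its Y-linked gene Eif2s3y 35.1 and 13.3 against 52.6 and 45.7 FPKM (1.14 ± 0.46, adjusted p = 0.123). The values of Eif2s3y had the largest positive fold change of all members but did not pass. The ratio of Eif2s3x to Eif2s3y was 6.36 and 9.72 in the uninduced and 2.70 and 2.29 in the induced samples, and reads of these similar genes can be assigned to either. Eif2a and Eif2d, which can deliver initiator tRNA without eIF2, measured 32.8 and 16.99 against 26.75 and 22.6 FPKM and 22.1 and 24.5 against 25.9 and 29.3 FPKM. Their rows span 6004 and 57600 bp beyond the genes. Uninduced sample 1 was higher than uninduced sample 2 in 5 of these 6 genes, beside 7312 of all 12890 loci tested. The median log2 difference of sample 2 minus sample 1 was -0.70 in these genes and -0.07 over all loci. The median change between the groups was -0.14, in which 3 negative and 3 positive changes offset each other.

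All 5 subunits of eIF2B had both induced values below both uninduced values, which 34.7% of all loci did. Of the 5, 3 fell (60%, beside 14.7% of all loci). The summed FPKM of these 5 over that of Eif2s1, Eif2s2 and Eif2s3x was 0.763 and 1.11 in the uninduced and 0.665 and 0.939 in the induced samples, so the balance of eIF2B to eIF2 transcripts overlapped between the groups. Eif2b1, the alpha subunit, part of the regulatory core (chromosome 5, 124570213 to 124579131), measured 68.2 and 49.3 FPKM in the uninduced and 24.7 and 19.8 FPKM in the induced samples (-1.35 ± 0.25, adjusted p = 0.0224). Eif2b3, the gamma subunit (chromosome 4, 117019402 to 117087306), measured 34.7 and 31.6 against 14.0 and 13.9 FPKM (-1.19 ± 0.18, adjusted p = 0.0179). Eif2b2, the beta subunit (chromosome 12, 85219481 to 85226628), was the most abundant and measured 68.2 and 75.6 against 42.6 and 41.5 FPKM (-0.76 ± 0.18, adjusted p = 0.0396). The delta and catalytic epsilon subunits did not pass. Eif2b4 measured 51.8 and 46.8 against 32.3 and 42.7 FPKM (-0.40 ± 0.22, adjusted p = 0.225), and Eif2b5 60.3 and 56.6 against 43.5 and 48.9 FPKM (-0.34 ± 0.19, adjusted p = 0.225). The summed FPKM of the alpha, beta and gamma subunits over that of delta and epsilon was 1.53 and 1.51 in the uninduced and 1.07 and 0.820 in the induced samples; this grouping was chosen after the values were seen and carries no test. Eif2b2 did not pass under quantile scaling or with globins and the most abundant loci taken out of the sums.

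Of the 13 single-symbol eIF3 genes, 4 fell (30.8%, beside 14.7% of all loci) and none rose. The human and mouse factor is built around a ring-like octamer of the a, c, e, f, h, k, l and m subunits, to which the b, g and i subunits attach as a separate module and d and j at the periphery. Eif3b (chromosome 5, 140419328 to 140443360), the scaffold of that module, had the largest fall of all members, from 169 and 192 FPKM to 50.1 and 45.8 FPKM (-1.89 ± 0.19, adjusted p = 0.0114). Eif3c (chromosome 7, 126546455 to 126566411), a core subunit, measured 163 and 208 against 82.1 and 80.7 FPKM (-1.17 ± 0.21, adjusted p = 0.0222). Eif3d (chromosome 15, 77958998 to 77970813), a subunit that can bind the cap of certain mRNAs, measured 293 and 269 against 141 and 152 FPKM (-0.94 ± 0.19, adjusted p = 0.0288). Eif3l (chromosome 15, 79075179 to 79094405) measured 204 and 185 against 98.9 and 106 FPKM (-0.92 ± 0.19, adjusted p = 0.0287). In these 4 genes both induced samples lay below both uninduced samples, with ratios of mean FPKM of 0.266, 0.438, 0.520 and 0.526. Exons of Eif3d overlap those of Gm17638 on the other strand over 43.3% of their bases, so its value can hold reads of both. Eif3l did not pass with globins and the most abundant loci taken out of the sums.

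**Figure D3:**
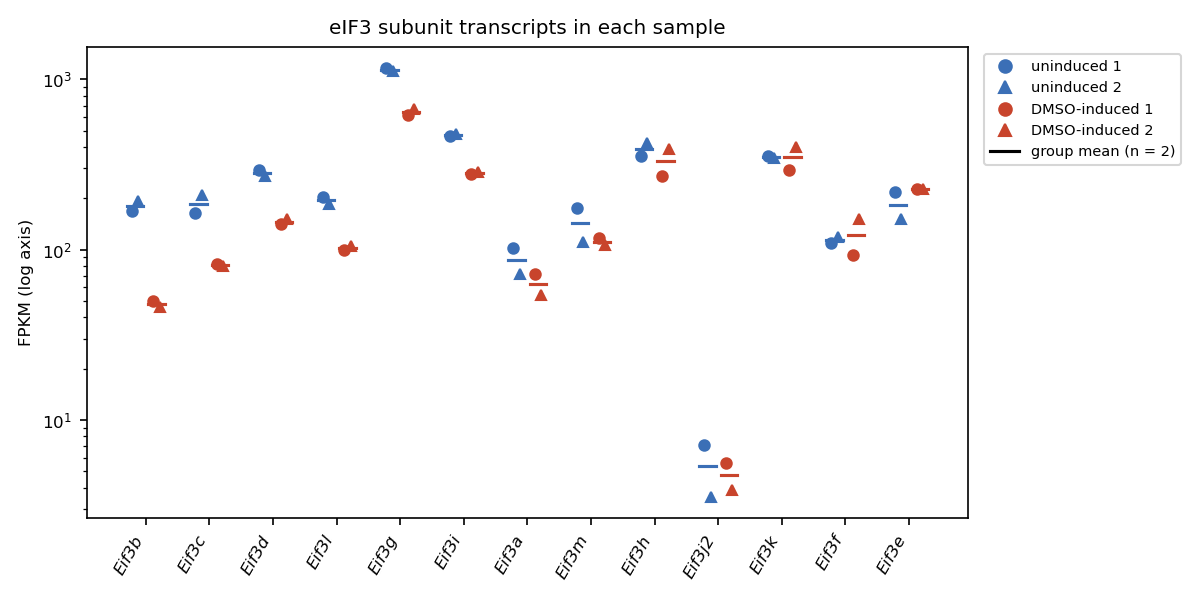
FPKM (log axis) of the 13 eIF3 genes in each sample, ordered by fold change from Eif3b to Eif3e; bars are group means of n = 2. The 6 genes at the left, Eif3b to Eif3i, have both induced samples below both uninduced samples, while most genes to the right overlap.

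The other members of the b, g and i module lay just outside the threshold. Eif3g, the most abundant eIF3 transcript, measured 1158 and 1114 against 619 and 670 FPKM (-0.82 ± 0.23, adjusted p = 0.0574), and Eif3i 463 and 479 against 277 and 285 FPKM (-0.74 ± 0.20, adjusted p = 0.0517). Eif3i passed under median-of-ratios scaling and with the filter at 5 FPKM, but under no other alternative. Its adjusted p by limma was 0.0899 under quantile normalization and 0.0842 with globins and the most abundant loci taken out of the sums. Eif3g passed under no alternative. The remaining 7 subunits did not pass. Eif3e measured 216 and 151 against 228 and 225 FPKM (0.33 ± 0.25, adjusted p = 0.363), Eif3f 110 and 119 against 92.7 and 150 FPKM (0.04 ± 0.28, adjusted p = 0.918) and Eif3k 352 and 344 against 295 and 400 FPKM (-0.02 ± 0.24, adjusted p = 0.96). Eif3h measured 352 and 424 against 271 and 388 FPKM, Eif3m 175 and 111 against 116 and 107 FPKM, and Eif3a, the largest subunit, 102 and 72.0 against 72.2 and 54.1 FPKM, with adjusted p from 0.255 to 0.508. The row of Eif3m spans 132675 bp beyond the gene. Eif3j2, on chromosome 18, measured 7.17 and 3.53 against 5.61 and 3.86 FPKM; its near-identical copy Eif3j1 has a row with a second symbol and was left out.

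The summed FPKM of Eif3b, Eif3g and Eif3i over that of Eif3e, Eif3f and Eif3h was 2.64 and 2.57 in the uninduced and 1.60 and 1.31 in the induced samples, a mean of 2.60 ± 0.05 against 1.46 ± 0.21 (SD, n = 2). Eif3b over Eif3h went from 0.481 and 0.452 to 0.185 and 0.118, and Eif3c over Eif3e from 0.755 and 1.38 to 0.360 and 0.358. In each of these ratios both induced values were below both uninduced values, but they were chosen after the values were seen and carry no test.

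The promoters of the 4 eIF3 genes that fell are shown beside those of Eif3f and Eif3k, which did not pass, so that genes on both sides of the threshold can be compared. The sequences are from RefSeq on GRCm38.p6, from 250 bases before to 30 bases after the annotated start, 5′ to 3′ along the gene. Capitals mark an ETS-type core (CCGGAAG on either strand) or an E-box (CACGTG); these motifs do not overlap here.
Eif3b, chr5:140419055-140419334, plus strand: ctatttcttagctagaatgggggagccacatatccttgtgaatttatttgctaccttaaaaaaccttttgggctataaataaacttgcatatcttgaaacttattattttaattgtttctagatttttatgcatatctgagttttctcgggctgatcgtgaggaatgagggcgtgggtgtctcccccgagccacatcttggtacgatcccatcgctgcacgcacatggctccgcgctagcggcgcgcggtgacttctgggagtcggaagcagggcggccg
Eif3c, chr7:126566337-126566616, minus strand: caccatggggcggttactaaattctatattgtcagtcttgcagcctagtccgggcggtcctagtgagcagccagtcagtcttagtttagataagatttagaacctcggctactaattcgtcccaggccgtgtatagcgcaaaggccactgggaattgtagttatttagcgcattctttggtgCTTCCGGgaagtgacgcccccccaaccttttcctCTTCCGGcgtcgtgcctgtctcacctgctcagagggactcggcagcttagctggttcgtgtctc
Eif3d, chr15:77970795-77971074, minus strand: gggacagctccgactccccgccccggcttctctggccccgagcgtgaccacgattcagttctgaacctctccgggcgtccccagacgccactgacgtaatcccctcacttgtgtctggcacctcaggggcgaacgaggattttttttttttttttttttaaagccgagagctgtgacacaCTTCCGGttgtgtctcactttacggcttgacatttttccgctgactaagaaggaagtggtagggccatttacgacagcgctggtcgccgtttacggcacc
Eif3l, chr15:79074973-79075252, plus strand: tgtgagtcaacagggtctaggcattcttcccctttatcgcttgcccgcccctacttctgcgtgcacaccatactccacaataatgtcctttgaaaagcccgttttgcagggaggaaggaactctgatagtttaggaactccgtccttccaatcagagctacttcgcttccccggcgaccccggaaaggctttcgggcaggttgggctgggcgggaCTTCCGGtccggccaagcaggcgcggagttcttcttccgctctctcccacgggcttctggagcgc
Eif3f, chr7:108934165-108934444, plus strand: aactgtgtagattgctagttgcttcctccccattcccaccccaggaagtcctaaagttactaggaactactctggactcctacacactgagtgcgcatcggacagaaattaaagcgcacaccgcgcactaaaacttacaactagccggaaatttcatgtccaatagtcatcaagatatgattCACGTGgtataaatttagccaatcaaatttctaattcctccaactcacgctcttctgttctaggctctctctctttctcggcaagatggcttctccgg
Eif3k, chr7:28981859-28982138, minus strand: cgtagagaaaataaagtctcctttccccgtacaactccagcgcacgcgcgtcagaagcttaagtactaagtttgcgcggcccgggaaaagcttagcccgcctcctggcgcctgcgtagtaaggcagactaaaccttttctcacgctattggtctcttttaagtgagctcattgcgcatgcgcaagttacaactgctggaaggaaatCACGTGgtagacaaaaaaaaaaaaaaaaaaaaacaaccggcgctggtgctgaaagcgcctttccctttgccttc

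Eif3c held 2 ETS-type cores, Eif3d and Eif3l 1 each and Eif3b none, while Eif3f and Eif3k held 1 E-box each and no ETS-type core. Among members that did not pass, Eif3g and Eif3m held an ETS-type core, so the motif was found on both sides of the threshold. Of the 51 members, 40 had a promoter in the table. The ETS-type core was in 6 of 11 promoters of fallen members (54.5%) and in 9 of 27 of the tested members that did not pass (33.3%), beside 21.7% of 7204 tested genes and 9.48% of all 27025 genes with a promoter of this length. The E-box was in 2 of 11 (18.2%) and 8 of 27 (29.6%), beside 11.8% and 7.71%. Of 3 other patterns searched, TGATGNAA, an element bound by ATF4, was in 2 of 38 tested members (5.26%, beside 2.4% of tested genes), an NRF1-type pattern (GCGCA, any base, GCGC) in 5 (13.2%, beside 12.6%) and TATAAA in 5 (13.2%, beside 7.38%). These are matches of letters on both strands and not measured binding, and genes with several annotated starts counted once if any start matched.

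Of 6 tested members of eIF4F and its helpers, Eif4a3 alone fell (16.7%, near the 14.7% of all loci) and none rose. Eif4a3 (chromosome 11, 119288363 to 119300089) encodes a helicase of the exon junction complex rather than of the cap complex, and measured 154 and 128 against 79.0 and 72.0 FPKM (-0.88 ± 0.20, adjusted p = 0.0354). It did not pass under quantile scaling or with globins and the most abundant loci taken out. Eif4h and Eif4b, which stimulate the eIF4A helicase, measured 321 and 266 against 190 and 185 FPKM (-0.64 ± 0.21, adjusted p = 0.0784) and 306 and 404 against 262 and 364 FPKM (-0.19 ± 0.28, adjusted p = 0.636). Eif4b was the most abundant of the group. The scaffold gene Eif4g1 measured 157 and 113 against 85.4 and 85.1 FPKM (-0.63 ± 0.23, adjusted p = 0.102), and its paralog Eif4g3 7.71 and 5.27 against 7.03 and 6.75 FPKM. The ratio of Eif4g1 to Eif4g3 was 20.3 and 21.3 in the uninduced and 12.1 and 12.6 in the induced samples. Eif4e2, a cap-binding relative of eIF4E that represses rather than starts translation of some mRNAs, measured 113 and 64.7 against 70.8 and 71.9 FPKM, with overlapping groups. Uninduced sample 1 was above uninduced sample 2 in 5 of these 6 genes, beside 7312 of all 12890 loci tested.

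Among proteins that hold eIF4E away from eIF4G, Eif4ebp1 fell and its relatives did not pass. Eif4ebp1, the gene for 4E-BP1, a repressor that mTOR kinase switches off (chromosome 8, 27260329 to 27276674), measured 146 and 212 FPKM in the uninduced and 53.1 and 43.3 FPKM in the induced samples (-1.85 ± 0.26, adjusted p = 0.0154). This was the second largest fall of the members, and the groups were far apart. Its row spans 38442 bp beyond the gene, so the value can hold other transcription. Eif4ebp2 measured 8.95 and 6.07 against 7.90 and 5.05 FPKM (-0.19 ± 0.30, adjusted p = 0.658), and Eif4enif1, whose protein carries eIF4E into the nucleus, 21.7 and 20.4 against 21.6 and 25.2 FPKM (0.14 ± 0.19, adjusted p = 0.601). The row of Eif4enif1 spans 92369 bp beyond the gene. In the uninduced samples Eif4ebp1 was at 16.3 and 34.9 times the level of Eif4ebp2, and in the induced samples at 6.72 and 8.58 times. Eif4ebp1 therefore remained the more abundant of this pair in every sample.

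Eif5a fell together with both enzymes that make its hypusine, while the minor paralog did not pass. Eif5a (chromosome 11, 69916714 to 69921958) measured 1190 and 1020 FPKM in the uninduced and 493 and 378 FPKM in the induced samples (-1.35 ± 0.26, adjusted p = 0.0252), with a ratio of means of 0.394. Eif5a2 (chromosome 3, 28781276 to 28798846) measured 6.33 and 2.94 against 9.17 and 6.43 FPKM (0.69 ± 0.37, adjusted p = 0.213). Eif5a over Eif5a2 was 188 and 347 in the uninduced and 53.8 and 58.7 in the induced samples, so Eif5a stayed the main form. Dhps, deoxyhypusine synthase, measured 30.4 and 25.6 against 12.4 and 11.4 FPKM (-1.16 ± 0.20, adjusted p = 0.0203), and Dohh, deoxyhypusine hydroxylase, 93.6 and 90.6 against 34.1 and 28.7 FPKM (-1.53 ± 0.19, adjusted p = 0.0136). Neither enzyme is a member; both were in a list of other pathway genes.

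**Figure D4:**
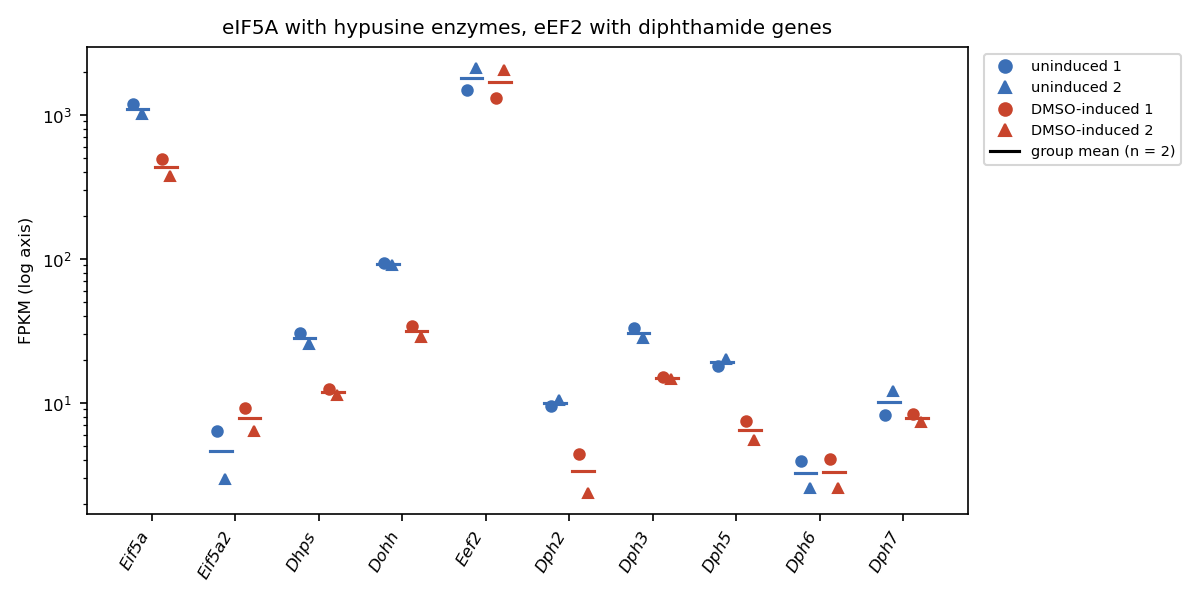
FPKM (log axis) in each sample of the modified factors Eif5a, Eif5a2 and Eef2 with genes of hypusine synthesis (Dhps, Dohh) and diphthamide synthesis (Dph2 to Dph7); bars are group means of n = 2. Eif5a, Dhps, Dohh, Dph2, Dph3 and Dph5 have both induced samples below both uninduced samples, while those of Eef2 and Dph6 overlap.

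Transcripts of the elongation factors themselves were abundant. None of the 3 tested passed by limma, where 14.7% of all loci fell and 11.5% rose, and 0 did at an unadjusted p of 0.05. With only 3 genes, 0 cannot be told apart from these shares. Eef2 (chromosome 10, 81176631 to 81182498), the most abundant member of all, measured 1480 and 2109 FPKM in the uninduced and 1307 and 2052 FPKM in the induced samples (-0.11 ± 0.37, adjusted p = 0.839). Its replicates differed by more than its groups, with replicate 2 the higher in both. Eef1g (chromosome 19, 8967041 to 8978479) and Eef1d (chromosome 15, 75894205 to 75909556) encode parts of the complex that reloads eEF1A with GTP. Eef1g measured 982 and 1130 against 666 and 766 FPKM (-0.56 ± 0.25, adjusted p = 0.147), and Eef1d 387 and 343 against 243 and 338 FPKM (-0.35 ± 0.25, adjusted p = 0.341). Both had induced values below uninduced values without passing.

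Both member genes whose products modify eEF2 fell, where 14.7% of all loci did. Eef2k (chromosome 7, 120842831 to 120907450), the kinase that switches eEF2 off, measured 17.1 and 18.6 against 8.68 and 8.86 FPKM (-0.95 ± 0.19, adjusted p = 0.0272). Eef2kmt (chromosome 16, 5244152 to 5255983), a lysine methyltransferase of eEF2, measured 15.5 and 16.4 against 6.39 and 6.30 FPKM (-1.20 ± 0.19, adjusted p = 0.0186). Replicates of both genes were nearly equal within each group. For every 1000 FPKM of Eef2 there were 11.6 and 8.81 FPKM of Eef2k in the uninduced and 6.64 and 4.32 in the induced samples. Exons of Eef2kmt overlap those of Alg1 and Gm15983 on the other strand over 23.0% of their bases, and its row spans 44169 bp beyond the gene. Diphthamide is the modified histidine of eEF2 that diphtheria toxin attacks. Of its single-symbol synthesis genes, Dph5 fell from 18.1 and 20.3 to 7.50 and 5.51 FPKM (-1.44 ± 0.23, adjusted p = 0.0186), Dph2 from 9.56 and 10.4 to 4.40 and 2.36 FPKM (adjusted p = 0.0311) and Dph3 from 33.4 and 28.0 to 15.3 and 14.7 FPKM (adjusted p = 0.0265). Dph6 (0.01 ± 0.30) and Dph7 (-0.31 ± 0.26) did not pass.

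**Figure D5:**
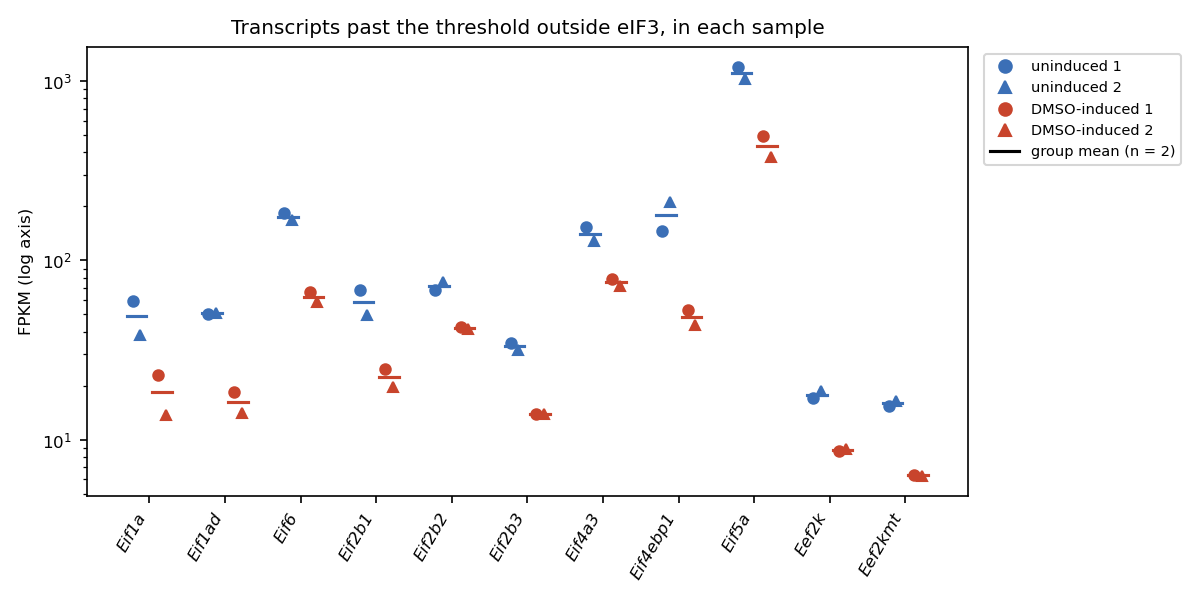
FPKM (log axis) in each sample of the 11 fallen members outside eIF3; bars are group means of n = 2. In each of the 11 both induced samples lie below both uninduced samples, from Eif5a with 1190 and 1020 against 493 and 378 FPKM down to Eef2kmt with 15.5 and 16.4 against 6.39 and 6.30 FPKM.

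Several factor mRNAs begin with a terminal oligopyrimidine (TOP) tract, through which mTOR controls their translation together with that of ribosomal protein mRNAs. Of 8 factor genes listed as TOP mRNAs, 6 were members: Eef1d, Eef1g, Eef2, Eif3e, Eif3f and Eif3h. None of the 6 passed by limma in either direction (0 also at an unadjusted p of 0.05), and their median log2 fold change was -0.18. With only 6 genes, 0 cannot be told apart from the 14.7% of all loci that fell. Of the 42 members outside this list, 15 fell (35.7%, beside 14.7% of all loci) with a median of -0.47. Within eIF3, 4 of the 10 subunits outside the list fell, with a median of -0.78. Whether the lists differ was not tested. All 3 tested elongation factors are in the TOP list, so both descriptions rest on the same genes there.

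Of 41 other single-symbol genes of the translation pathway tested in 7 lists, none of them members, 7 fell (17.1%) and 4 rose (9.76%), near the 14.7% and 11.5% of all loci. The other 30 did not pass, and the median over all 41 was -0.08. In the list of eIF2 kinases and phosphatase subunits 1 of 5 rose and none fell. It was Eif2ak1, the heme-regulated eIF2 kinase, which went from 10.1 and 6.56 to 27.2 and 34.7 FPKM (1.79 ± 0.27, adjusted p = 0.0176), the largest rise of the pathway lists. Mknk2, a kinase of eIF4E, rose from 87.5 and 69.3 to 186 and 305 FPKM (1.60 ± 0.31, adjusted p = 0.0245), and Paip1, a partner of poly(A)-binding protein and eIF4A, from 17.3 and 9.98 to 33.7 and 28.8 FPKM (1.18 ± 0.30, adjusted p = 0.0453). The fourth riser was Pdcd4, an inhibitor of eIF4A (19.4 and 20.6 against 40.8 and 39.5 FPKM, adjusted p = 0.023), which the naming rule did not reach. The largest falls were those of Eef1e1, a component of the multisynthetase complex (118 and 98.4 against 38.9 and 22.2 FPKM, -1.84 ± 0.31, adjusted p = 0.0201), Dohh and Dph5. Larp1, which the naming rule did not reach either, fell as well (30.4 and 23.6 against 13.2 and 10.8 FPKM, adjusted p = 0.0287 by limma). In the hypusine and diphthamide list 5 of 7 fell (median -1.16), while none of the 5 tested helicases and accessory initiation genes and none of the 4 tested termination and recycling genes passed by limma. At an unadjusted p of 0.05 there were 0 in the former list and 2 lower and 0 higher in the latter.

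The 9 rows that held a factor gene and at least 1 further symbol are given apart from the members. Reads of the further symbols, whether small RNAs or other genes, can add to their values. Eef1a1 was at 6827 and 7107 against 6926 and 8257 FPKM and Eef1b2 at 687 and 866 against 606 and 872 FPKM, with adjusted p of 0.824 and 0.843. Eif4a1 measured 788 and 660 against 500 and 354 FPKM (adjusted p = 0.0949), and Eif4e 105 and 74.3 against 73.2 and 64.4 FPKM (adjusted p = 0.306). The row of Eif4g2, an eIF4G relative that lacks the eIF4E site, and of a small nucleolar RNA within it rose from 1413 and 811 to 4961 and 2993 FPKM (1.85 ± 0.43, adjusted p = 0.0374). It was the only one of the 9 that passed. Eif4ebp3, a further 4E-BP gene, measured 11.5 and 8.62 against 18.3 and 16.1 FPKM (0.73 ± 0.23, adjusted p = 0.0724), a value opposite in sign to that of Eif4ebp1. Eif4e3 measured 11.0 and 8.46 against 6.08 and 5.92 FPKM (-0.61 ± 0.22, adjusted p = 0.102), and Eif3j1 45.7 and 37.3 against 36.7 and 23.9 FPKM (-0.47 ± 0.27, adjusted p = 0.248). In each of the 9 rows, that of Eif4g2 included, the change of the factor gene cannot be told apart from that of the further symbols. The row of Eif4a2, with 7 symbols, was at 127 and 845 against 1352 and 1291 FPKM, with its uninduced replicates far apart.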

How the data were processed

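RNA-seq of 4 samples in 2 groups was used, uninduced and DMSO-induced MEL cells with replicates 1 and 2, grouped by title. Per the labels' protocols, Trizol RNA was freed of ribosomal RNA with Ribo-Zero before library making. TopHat2 and the GRCm38 build are named, per the submitters' processing notes; any quantifier, annotation release, strand setting or read depth is not given in the sources used here. Values in the deposited table are FPKM, with 1 column per sample; per the file headers its layout is that of Cufflinks tracking output, and the unit was inferred from this and from values that are not whole and sum to 1055861 to 1325806 per sample. The design kept a count test in case of raw counts, which this table does not hold.

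Loci reaching 1 FPKM in 2 or more samples (12890) entered limma 3.58.1 (R 4.3.3, eBayes with trend) on log2(FPKM + 1), with group as sole term; p-values were Benjamini-Hochberg adjusted across every locus tested, with a threshold of 0.05. The script was tested on simulated data. A fold change on this scale understates that of low genes. The share was compared by exact permutation (two-sided, 6 arrangements). Gene positions come from GENCODE M21 (GRCm38) and promoters from RefSeq (GRCm38.p6).

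The members and lists were chosen with earlier results of these data known. By rule, values are given for each called member, the most abundant and most changed member of each role group, paralog sets, the 3 called pathway genes with the largest change in each direction, and called eIF2 kinases; any others were picked with their values in view. Alternatives were quantile normalization, median-of-ratios scaling, scaling by sums that leave out globins and the 10 most abundant loci, dropping the filter or setting it to 5 FPKM, adding 0.1 instead of 1, blocking on replicate number, omitting each sample, and 2 other totals behind the share.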

Additional observations from a re-analysis of the deposited data

How the results depend on the processing

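The count of fallen members was 12 under quantile normalization, 16 under median-of-ratios scaling, 11 with globins and the 10 most abundant loci left out of the sums, 14 with a pseudocount of 0.1, 16 with a filter at 5 FPKM and 16 with the replicate block, and 0 members rose by limma under each. Without a filter on low values 0 members fell, and 220 loci changed in place of 3377. When 1 sample was left out, between 0 and 1 members fell and between 14 and 486 loci changed. The 15 fallen members kept a negative sign under each alternative run. With 1 sample left out this could not come out otherwise, since in each of the 15 both induced values lay below both uninduced values. Their sign there is therefore no check on the calls, and only the 3 scalings could have changed it. The median log2 fold change of the members was -0.21 under quantile normalization (0.09 for all loci) and ran from -0.65 to -0.39 when 1 sample was left out. Of the 15, 11 passed under all 3 scalings; Eif1a, Eif2b2 and Eif4a3 failed under quantile normalization, these and Eif3l with globins left out, and Eif1a with a pseudocount of 0.1. The difference in share ran from -0.36 to -0.18 points when 1 sample was left out. Same-numbered samples deviated together with a correlation of 0.17; the labels tie them by a number only, and the replicate block called 4238 loci and added Eif2s2 to the fallen members.

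Of the members that did not pass, 14 changed sign under at least 1 alternative. Under quantile normalization these were Eif1 (0.016), Eif3k (0.21) and Eif4b (0.024), under median-of-ratios scaling Eif5 (-0.0075), and with globins left out Eif3k (0.079) and Eif5b (0.061). Leaving out 1 sample gave ranges that crossed 0 for Eef2 (-0.43 to 0.22), Eif2a (-0.40 to 0.51), Eif3f (-0.30 to 0.39), Eif3h (-0.51 to 0.0051), Eif3j2 (-0.53 to 0.32), Eif3k (-0.24 to 0.20), Eif3m (-0.65 to 0.0056), Eif4b (-0.42 to 0.049), Eif4e2 (-0.66 to 0.14), Eif4ebp2 (-0.47 to 0.086), Eif4g3 (-0.14 to 0.33), Eif5 (-0.47 to 0.54) and Eif5b (-0.33 to 0.28). The cause was not tested. Read depth was not given, so no counting error could be attached to a value.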
